A study of Rattus norvegicus with 9 samples.

Results

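The genes described here are 9 rat genes of the cell division cycle: Mki67 (ENSRNOG00000028137), Top2a (ENSRNOG00000053047), Ccnb1 (ENSRNOG00000058539), Cdk1 (ENSRNOG00000000632), Ccna2 (ENSRNOG00000015423), Plk1 (ENSRNOG00000018815), Bub1b (ENSRNOG00000007906), Ccnd1 (ENSRNOG00000020918) and Pcna (ENSRNOG00000021264). They were picked by these Ensembl identifiers, and their names were supplied with the selection, because the deposited tables hold identifiers only. All 9 were present among the 30560 genes of the table, and all 9 passed the filter on low values that left 12192 genes for testing. Levels were measured by RNA sequencing in the rat cell line HBZY-1. Its cells are glomerular mesangial cells, the contractile cells that hold the capillaries of the kidney's filtering unit together. The labels give 3 groups of 3 libraries: cells treated with the high dose of an aqueous extract made from lyophilized powder of the leech Poecilobdella manillensis (extract), LPS-induced cells (LPS, lipopolysaccharide, a bacterial cell wall component that provokes inflammation) and control cells. The labels give no dose or exposure time and do not say whether the extract cells also received LPS or what the control cells received. All cells are of 1 line, so no group carries a genetic change relative to another by design. The line's mesangial identity was not checked against marker genes here, because no marker name was paired with an identifier.

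These genes mark successive steps of cell division. Cyclin D1, encoded by Ccnd1, acts in G1, where it is induced by growth signals and joins CDK4 or CDK6 to release the cell into DNA synthesis. Pcna encodes the sliding clamp of the replicating DNA polymerases and is a classic marker of S phase. Cyclin A2 (Ccna2) acts in S and G2, and topoisomerase II alpha (Top2a) untangles the duplicated chromosomes. Cyclin B1 (Ccnb1) and its partner kinase Cdk1 drive entry into mitosis, Plk1 encodes a kinase of mitotic entry and spindle assembly, Bub1b encodes the spindle checkpoint protein BubR1, and Mki67 encodes the Ki-67 antigen that coats mitotic chromosomes and is used to count cycling cells. In the glomerulus, proliferation of mesangial cells is a common feature of glomerulonephritis.

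Abundances were deposited as TPM, each gene's share of the transcripts of a library, corrected for length and scaled to a total of 1000000, so levels of different genes can be set side by side but read depth is unknown. The series calls its replicates biological without saying whether they were separate cultures. The p-values measure only the spread between these libraries, which may be technical. Between 11954 and 12104 genes reached 1 TPM in a library. Each gene's level in bulk RNA is an average over cells, so a change in the share of cycling cells and a change in RNA per cycling cell cannot be told apart.

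Of the 9 genes, 8 followed one order of groups: they were highest in extract cells, lowest in LPS cells and intermediate in control cells. Ccnd1 was the exception, with its lowest level in extract cells. How many of all tested genes followed the order of the 8 was not counted. For all 9 genes the values of any pair of groups did not overlap. Among all tested genes the groups did not overlap for 65.1% in extract versus LPS, 61.1% in extract versus control and 50.1% in LPS versus control, so separation of the groups alone was common. The summed level of the 8 genes was 961 ± 8.83 TPM in extract cells, 452 ± 16.5 TPM in LPS cells and 624 ± 15.3 TPM in control cells (SD, n = 3 each).

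**Figure D1:**
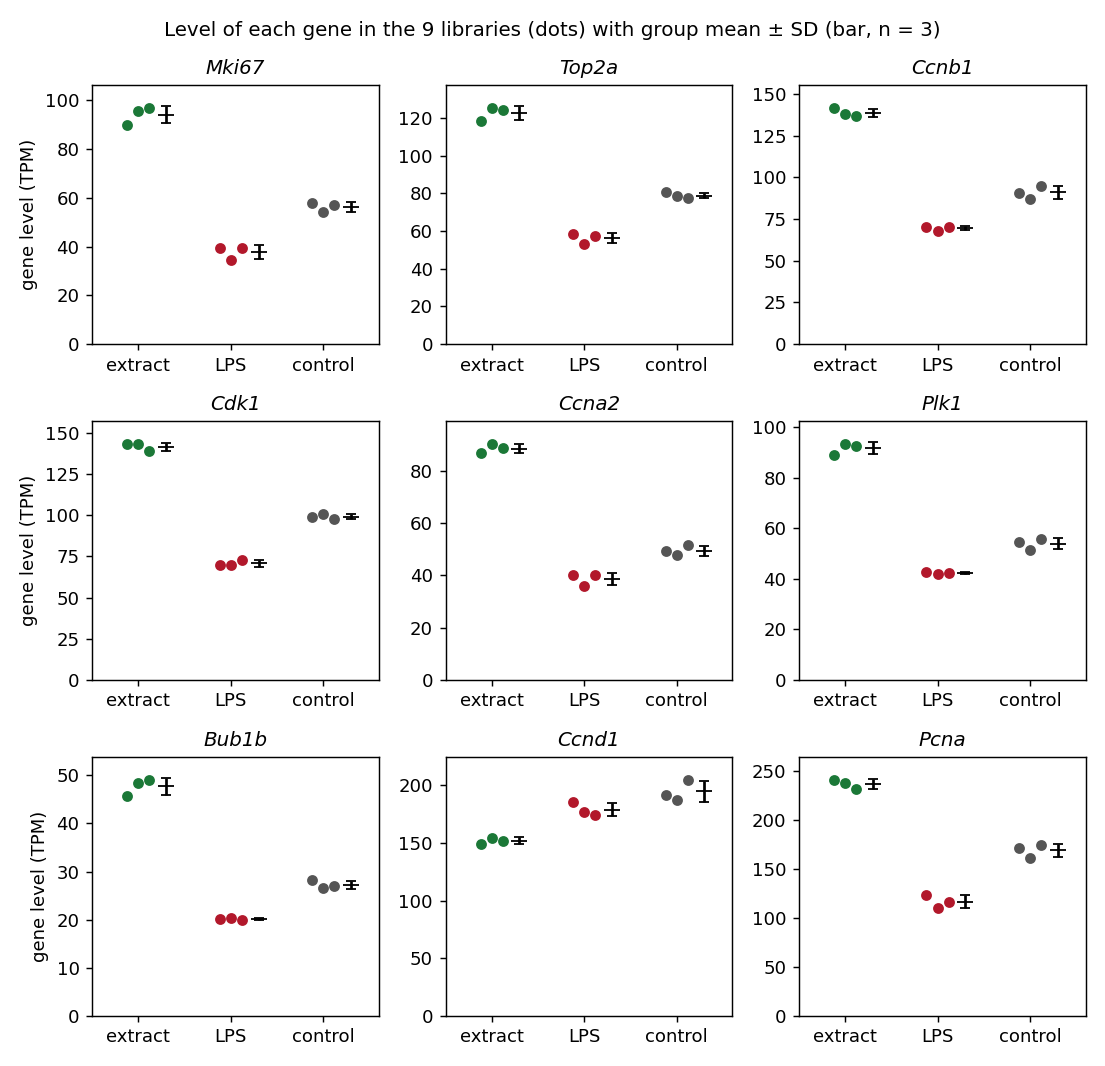
Level of each of the 9 genes in TPM (vertical axis, from 0) in the extract, LPS and control libraries; dots are single libraries and the bar beside them is the group mean with its SD (n = 3). In 8 panels the extract dots lie highest and the LPS dots lowest, while Ccnd1 is lowest in extract cells.

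The promoters of the genes were searched for known motifs, as a description. Many genes of G2 and mitosis are known to carry CCAAT boxes, bound by NF-Y, and the cell cycle genes homology region (CHR), bound by MuvB complexes that repress them in quiescent cells and activate them with B-MYB and FOXM1. Windows of 300 bases, from 250 before to 50 after the transcription start, were taken from RefSeq (build GRCr8) and were matched by symbol for 7 genes, namely Mki67, Top2a, Ccnb1, Cdk1, Plk1, Bub1b and Pcna. The letters searched, on both strands, were CCAAT for the box and TTTGAA or TTTAAA for the CHR. The 150 bases before the start are shown for the 5 genes that had both, read 5′ to 3′ on the gene's strand, with matches in capitals (ATTGG and TTCAAA are matches on the opposite strand).
Mki67, chr1:199952594-199952743, minus strand: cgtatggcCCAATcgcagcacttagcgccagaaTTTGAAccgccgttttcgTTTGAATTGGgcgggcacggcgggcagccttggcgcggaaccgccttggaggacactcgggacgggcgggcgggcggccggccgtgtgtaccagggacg
Top2a, chr10:84473094-84473243, minus strand: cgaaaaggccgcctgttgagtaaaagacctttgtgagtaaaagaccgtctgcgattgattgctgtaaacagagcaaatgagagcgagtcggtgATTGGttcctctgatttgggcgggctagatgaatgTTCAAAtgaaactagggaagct
Ccnb1, chr2:33655226-33655375, minus strand: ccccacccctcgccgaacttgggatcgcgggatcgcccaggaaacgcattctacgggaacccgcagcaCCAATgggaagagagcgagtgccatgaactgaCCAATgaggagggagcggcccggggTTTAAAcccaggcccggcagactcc
Cdk1, chr20:19265143-19265292, plus strand: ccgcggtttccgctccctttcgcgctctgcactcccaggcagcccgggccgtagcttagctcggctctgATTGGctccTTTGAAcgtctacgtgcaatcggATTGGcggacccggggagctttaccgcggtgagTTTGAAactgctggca
Plk1, chr1:186147508-186147657, plus strand: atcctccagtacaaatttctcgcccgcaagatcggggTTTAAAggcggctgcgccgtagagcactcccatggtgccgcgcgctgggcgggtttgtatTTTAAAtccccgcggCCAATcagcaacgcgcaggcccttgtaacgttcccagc

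The CHR letters were found in 6 of the 7 windows and in 28.3% of all 33469 promoters of the table. Pcna was the gene without them. In Bub1b the match began 4 bases before the start and ran across it. The CCAAT letters were found in 6 of the 7 windows, Bub1b being the one without, and in 37.5% of all promoters. Both occurred together in 5 of the 7 windows and in 11.3% of all promoters. In Mki67 a CHR match and a CCAAT match on the opposite strand share 1 base. The E2F-like letters, TTTCGCG or TTTGGCG or TTTCCCG or TTTGCCG, were found in 1 of the 7 windows, that of Cdk1, and in 6.80% of all promoters. The TATA letters TATAAA were found in 0 of the 7 and in 14.2% of all promoters, and the GC box GGGCGG in 6 of the 7 and in 33.1%. A match is a run of letters and was not tested for binding or activity. Ccna2 had no window, nor had Ccnd1, the gene that moved the other way. The matches could therefore not be set against the direction of change.

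The first comparison set extract cells against the LPS model. Called genes are those with an adjusted p below 0.05 (limma on log2(TPM + 1), Benjamini-Hochberg over the 12192 genes). In this comparison 8 of the 9 genes were higher and 1, Ccnd1, was lower. The background was 34.4% of tested genes called higher and 25.0% called lower. At least 2-fold higher on the log2(TPM + 1) scale were 6 of the 9 genes, against 2.49% of tested genes. The 2 just under that threshold were Ccnb1 and Cdk1, both at a log2 fold change of 0.99. The count depended on the settings. With median-of-ratios scaling Pcna fell below the threshold, at 0.97, and with a pseudocount of 0.1 Cdk1 passed it, at 1.002. The median log2 fold change was 1.09 over the 9 genes and 0.04 over all tested genes. For the 8 genes that rose, between 1.13% and 2.95% of tested genes had a higher fold change.

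Among the genes of mitosis, Mki67 had the greatest fold change between extract and LPS cells. Its level was 90.0, 95.5 and 96.6 TPM in the extract libraries, against 39.3, 34.5 and 39.4 TPM in the LPS libraries and 57.9, 54.1 and 57.1 TPM in the control libraries. Every extract library thus lay above every other library, and every LPS library below. Its mean in extract cells was 2.49 times that in LPS cells (log2 fold change 1.30 ± 0.056, SE; limma adjusted p = 1.30e-07).

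Bub1b, the spindle checkpoint gene, had the lowest level of the 9 in every group. It stood at 45.7, 48.4 and 49.0 TPM in extract libraries, 20.2, 20.3 and 19.9 TPM in LPS libraries and 28.2, 26.5 and 27.0 TPM in control libraries. The 3 LPS values lay close together, with an SD of 0.172 TPM. The log2 fold change in extract versus LPS was 1.20 ± 0.040 (SE; limma adjusted p = 3.87e-08), a mean 2.37 times as high.

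Plk1, the mitotic kinase, had the same order of groups, at 89.0, 93.2 and 92.8 TPM in extract libraries, 42.8, 42.0 and 42.5 TPM in LPS libraries and 54.4, 51.5 and 55.7 TPM in control libraries. Its log2 fold change in extract versus LPS was 1.09 ± 0.038 (SE; limma adjusted p = 4.42e-08).

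The kinase that starts mitosis and its cyclin had nearly equal levels and nearly equal fold changes. Cdk1 measured 143, 143 and 139 TPM in extract libraries, 69.6, 69.6 and 73.0 TPM in LPS libraries and 98.7, 101 and 98.0 TPM in control libraries. Ccnb1 measured 141, 138 and 137 TPM in extract libraries, 70.5, 67.9 and 70.0 TPM in LPS libraries and 90.7, 87.0 and 94.9 TPM in control libraries. The ranges of this pair overlapped in extract and in LPS cells, and Cdk1 was above Ccnb1 in control cells. In extract versus LPS the mean level was 2.00 times as high for Cdk1 (log2 fold change 0.99 ± 0.032, SE; limma adjusted p = 3.01e-08). For Ccnb1 the ratio was also 2.00 (log2 fold change 0.99 ± 0.037, SE; limma adjusted p = 6.89e-08).

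Ccna2, Top2a and Pcna rose as well. Ccna2, which spans S and G2, was at 86.6, 90.1 and 88.5 TPM in extract libraries, 40.1, 36.1 and 40.0 TPM in LPS libraries and 49.1, 47.6 and 51.5 TPM in control libraries. Top2a was at 119, 125 and 124 TPM in extract libraries, 58.3, 53.0 and 57.5 TPM in LPS libraries and 80.5, 78.3 and 77.7 TPM in control libraries. Pcna, the replication clamp, was at 240.3, 238 and 231 TPM in extract libraries, 123, 109.6 and 116 TPM in LPS libraries and 171, 161 and 174 TPM in control libraries. In all 3 of these genes the groups kept the same order with gaps between them. The log2 fold change in extract versus LPS was 1.17 ± 0.048 for Ccna2 (SE; limma adjusted p = 1.13e-07). It was 1.11 ± 0.042 for Top2a (limma adjusted p = 6.91e-08) and 1.02 ± 0.046 for Pcna (limma adjusted p = 1.76e-07).

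Ccnd1, the G1 cyclin, went the other way. It measured 149, 155 and 152 TPM in extract libraries, 185, 177 and 174 TPM in LPS libraries and 192, 188 and 205 TPM in control libraries. All extract values lay below all LPS values, and the LPS and control values lay next to each other. Its mean in extract cells was 84.9% of that in LPS cells, and the log2 fold change was -0.23 ± 0.040 (SE; limma adjusted p = 0.000661). This is a small change beside those of the other 8 genes, but in the opposite direction.

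Extract versus control asked how far the extract cells stood from control cells. Here too 8 of the 9 genes were higher and Ccnd1 was lower, against a background of 22.3% of tested genes called higher and 29.4% called lower. The median log2 fold change was 0.63 over the 9 genes and -0.04 over all tested genes. Ccna2 rose most, to 179% of the control mean (log2 fold change 0.83 ± 0.048, SE; limma adjusted p = 1.11e-06). Bub1b stood at 175% of control (0.79 ± 0.040, limma adjusted p = 4.84e-07), and Plk1 followed at 0.76 ± 0.038 (limma adjusted p = 4.11e-07). Mki67 was higher by 0.73 ± 0.056 (limma adjusted p = 6.07e-06). The smallest increases belonged to the replication clamp and the kinase that starts mitosis. Pcna reached 140.0% of control (0.48 ± 0.046, limma adjusted p = 2.40e-05) and Cdk1 143% (0.51 ± 0.032, limma adjusted p = 1.63e-06). Top2a and Ccnb1 lay between, with log2 fold changes of 0.63 ± 0.042 (limma adjusted p = 2.61e-06) and 0.60 ± 0.037 (limma adjusted p = 1.58e-06). Ccnd1 fell to 78.0% of its control mean (log2 fold change -0.36 ± 0.040, limma adjusted p = 6.31e-05).

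LPS versus control asked how the inflammatory model differed from control cells. All 9 genes were called lower, against a background of 30.9% of tested genes called lower and 9.79% called higher. The median log2 fold change was -0.42 over the 9 genes and -0.08 over all tested genes. The split of calls over all genes depended on the scaling: with median-of-ratios scaling, 18.6% were called lower and 17.4% higher, and 8 of the 9 genes were still called lower. Mki67 fell most, to 66.9% of the control mean (log2 fold change -0.57 ± 0.056, SE; limma adjusted p = 4.73e-05). Pcna followed at 69.0% of control (-0.53 ± 0.046, limma adjusted p = 2.16e-05). The falls of Cdk1 and Top2a were both -0.48 on the log2 scale, with SEs of 0.032 and 0.042 (limma adjusted p = 3.53e-06 and 2.28e-05). Bub1b changed by -0.42 ± 0.040 (limma adjusted p = 4.22e-05) and Ccnb1 by -0.38 ± 0.037 (limma adjusted p = 4.43e-05). The smallest falls among the 8 were those of Ccna2, -0.34 ± 0.048 (limma adjusted p = 0.000424), and Plk1, -0.34 ± 0.038 (limma adjusted p = 0.000109).

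For Ccnd1 the difference between LPS and control cells was small and did not hold under several other settings. Its log2 fold change was -0.12 ± 0.040 (SE; limma adjusted p = 0.0355). After rescaling by the median of ratios it was -0.03 (limma adjusted p = 0.647). Leaving out a single library also took it past the threshold, with limma adjusted p = 0.0516 without extract replicate 3, 0.0910 without LPS replicate 2, 0.103 without LPS replicate 3, 0.0621 without control replicate 1 and 0.121 without control replicate 3. Over all alternatives the fold change ran from -0.15 to -0.03 and the adjusted p from 0.0229 to 0.647. The extract comparisons and the LPS comparison share libraries (LPS libraries enter extract versus LPS and LPS versus control, and control libraries enter both comparisons with control), so their fold changes for 1 gene are not independent of each other.

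**Figure D2:**
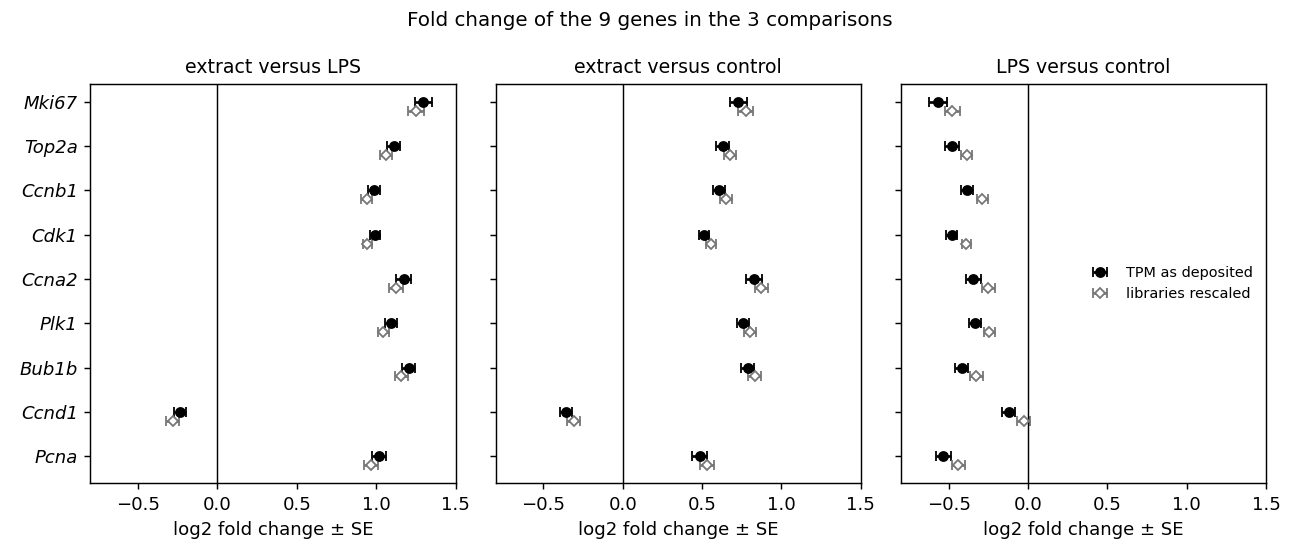
Log2 fold change (horizontal axis, with SE) of the 9 genes in extract versus LPS, extract versus control and LPS versus control; filled circles use TPM as deposited and open diamonds the libraries rescaled by the median of ratios. In extract versus LPS 8 genes lie between 0.99 and 1.30 as deposited and Ccnd1 lies at -0.23; rescaling leaves the direction of every gene as it was and brings Ccnd1 to -0.03 in LPS versus control.

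**Figure D3:**
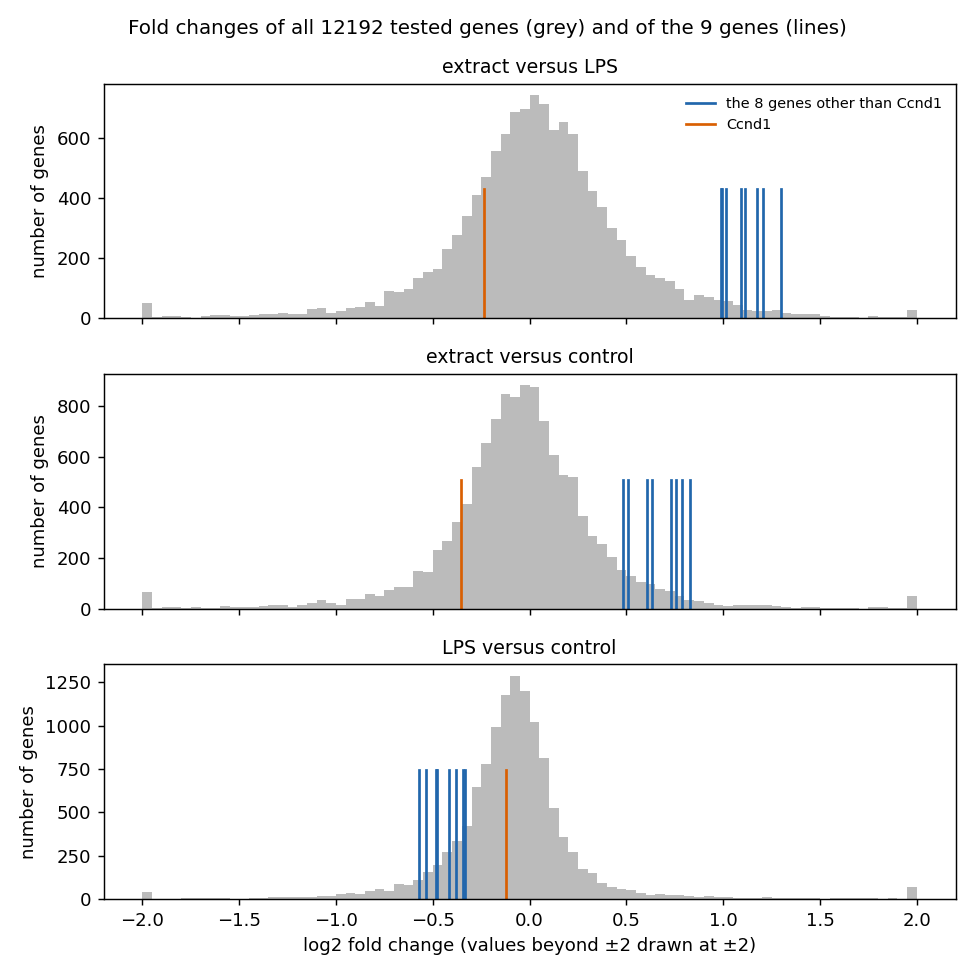
Number of tested genes (vertical axis) by log2 fold change (horizontal axis) in the 3 comparisons, in grey, with lines at the values of the 8 genes other than Ccnd1 (blue) and of Ccnd1 (orange). The 8 genes lie in the upper tail in both extract comparisons and in the lower part in LPS versus control. There the share of tested genes below them ran from 5.72% (Mki67) to 14.8% (Plk1).

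The order of the levels was similar in the 3 groups, but differed at the top and among Mki67, Plk1 and Ccna2. Pcna led in extract cells at 236 ± 4.86 TPM, ahead of Ccnd1 at 152 ± 2.98 TPM. In LPS cells Ccnd1 led at 179 ± 5.78 TPM, ahead of Pcna at 116 ± 6.73 TPM, and in control cells Ccnd1 led at 195 ± 8.81 TPM, ahead of Pcna at 169 ± 6.70 TPM (SD, n = 3 each). In each group Cdk1, Ccnb1 and Top2a followed, then Mki67, Plk1 and Ccna2, and Bub1b last. Mki67 had the highest mean of those 3 in extract and control cells and the lowest in LPS cells, where all its values lay below those of Plk1. Neighbours whose ranges overlapped were Cdk1 with Ccnb1 in extract and LPS cells, Mki67 with Plk1 and Plk1 with Ccna2 in extract and control cells, and Ccna2 with Mki67 in LPS cells. Levels of the 9 genes were above those of 74.5% to 95.3% of tested genes in extract cells, 52.0% to 93.8% in LPS cells and 59.0% to 94.1% in control cells.

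Ratios between genes of 1 library do not depend on how that library was scaled. The ratio of Ccnd1 to Pcna, a G1 gene over an S-phase gene, was 0.643 ± 0.021 in extract cells, 1.54 ± 0.066 in LPS cells and 1.15 ± 0.031 in control cells (SD, n = 3 each). For Ccnd1 over Mki67 the ratio was 1.61 ± 0.040 in extract cells, 4.76 ± 0.35 in LPS cells and 3.45 ± 0.13 in control cells. The share of Ccnd1 in the summed TPM of the 9 genes lay between 13.5% and 13.7% in extract, 27.5% and 29.0% in LPS and 23.3% and 24.3% in control libraries. Each of these 3 measures separated the groups without overlap. For extract cells against either other group, this followed from the levels given above. There Ccnd1 was lowest and the other genes were highest in every extract library. Between LPS and control cells the separation was not fixed in that way. The 3 measures share Ccnd1 and are not independent, and no share over ratios of other genes was set beside them.

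The levels were then set against each other within a library. Against the mean log2(TPM + 1) of the 9 genes, Ccnd1 was lower by 1.19 in extract than in LPS cells and lower by 0.91 than in control cells. Because Ccnd1 pulls that mean, the other 8 genes were compared with the mean of the 8, a choice made after the data were seen. Differences from that mean balance out over the 8 genes, so some must be negative where others are positive. Between extract and LPS cells Mki67 then stood higher by 0.19 and Ccna2 by 0.06, with no overlap between the libraries. Ccnb1, Cdk1 and Pcna differed by -0.12, -0.12 and -0.09, also with no overlap. The ranges overlapped for Bub1b, Top2a and Plk1, although set against the 9 genes they had not. Between extract and control cells Ccna2, Bub1b, Plk1 and Mki67 stood higher by 0.16, 0.12, 0.091 and 0.063 relative to the 8, while Pcna and Cdk1 differed by -0.18 and -0.16, in each case with no overlap. Top2a and Ccnb1 overlapped there. These differences are descriptions and were not tested, and no share over all tested genes was set beside the overlaps.

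**Figure D4:**
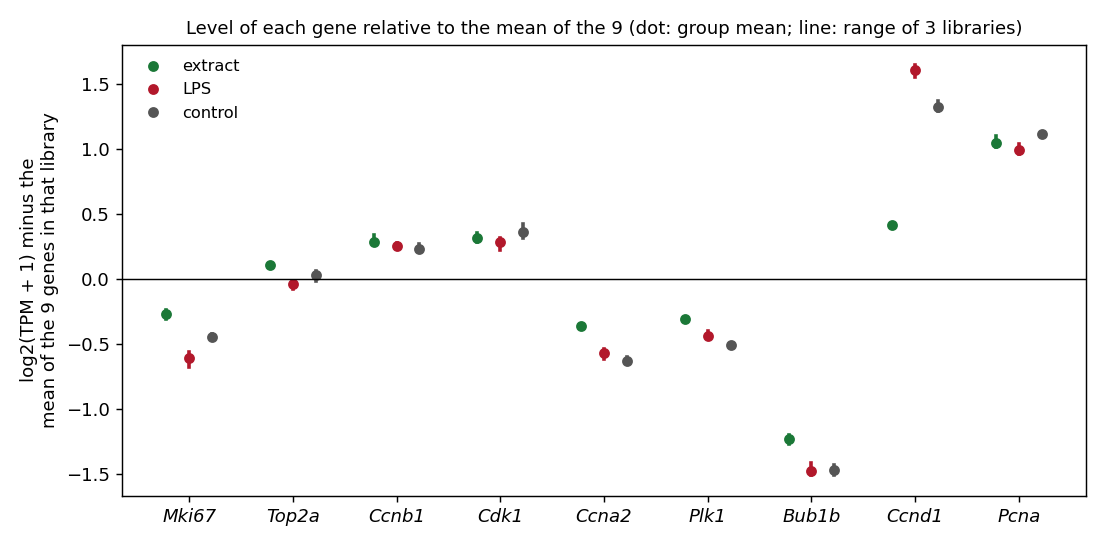
Level of each gene relative to the 9 genes of its own library (vertical axis, log2(TPM + 1) minus the mean of the 9), with the group mean as a dot and the range of 3 libraries as a line. Ccnd1 sits at 0.41 in extract, 1.61 in LPS and 1.32 in control cells, the widest gap among the 9.

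Transcripts were linked to each gene through the shortest run of consecutive rows whose TPM sums equal the gene's TPM in every library. Neighbouring transcripts of the gene with almost no TPM could thus be left out. For Mki67, Cdk1, Plk1, Bub1b and Pcna 1 transcript carried the gene's level, and for Top2a ENSRNOT00000085344 held nearly all of it, with a lowest share of 99.55% in 1 LPS library. Ccnb1 was spread over 3 transcripts, of which ENSRNOT00000103969 was the most abundant at 62.1% ± 2.81 of the gene in extract, 56.5% ± 7.09 in LPS and 57.2% ± 2.49 in control cells (SD, n = 3 each). Its mean level was 2.19 times as high in extract as in LPS cells, against 1.62 times for ENSRNOT00000082846 and 2.06 times for ENSRNOT00000104772. The share of ENSRNOT00000082846 was 25.2% ± 2.62 in extract, 31.2% ± 6.28 in LPS and 30.2% ± 1.42 in control cells, and its range in extract cells overlapped that in LPS cells but not that in control cells. All 3 Ccnb1 transcripts were thus higher in extract than in LPS cells by their means.

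Ccna2 was carried mainly by ENSRNOT00000079745, with 82.8% ± 2.16 of the gene in extract, 79.2% ± 2.79 in LPS and 84.3% ± 4.04 in control cells. That transcript stood at 73.2 ± 3.04 TPM in extract, 30.7 ± 2.21 TPM in LPS and 41.6 ± 0.442 TPM in control cells. The minor transcript ENSRNOT00000021156 stood at 15.2 ± 1.71 TPM in extract, 8.04 ± 1.18 TPM in LPS and 7.81 ± 2.31 TPM in control cells, so its LPS and control means differed by less than their spread. By group means, the lower Ccna2 level of LPS cells against control cells thus lay in the major transcript. The ranges of its share overlapped between these groups, and transcripts were not tested.

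Ccnd1 was divided among 3 transcripts with similar shares in all groups. The shares of ENSRNOT00000108193 were 44.4% ± 2.46 in extract, 42.5% ± 1.88 in LPS and 42.7% ± 1.64 in control cells. ENSRNOT00000088588 held 37.8% ± 3.45, 37.1% ± 2.83 and 39.0% ± 1.87 of the gene in extract, LPS and control cells, and ENSRNOT00000028411 held 17.8% ± 2.50, 20.4% ± 1.44 and 18.2% ± 0.307. In extract cells each of the 3 was at a lower mean than in LPS cells, at ratios of 0.887, 0.863 and 0.743 in the same order of transcripts. The submitters' processing notes name RSEM, which divides reads among overlapping transcripts by estimation, so shares of similar transcripts are less certain than gene levels.

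**Figure D5:**
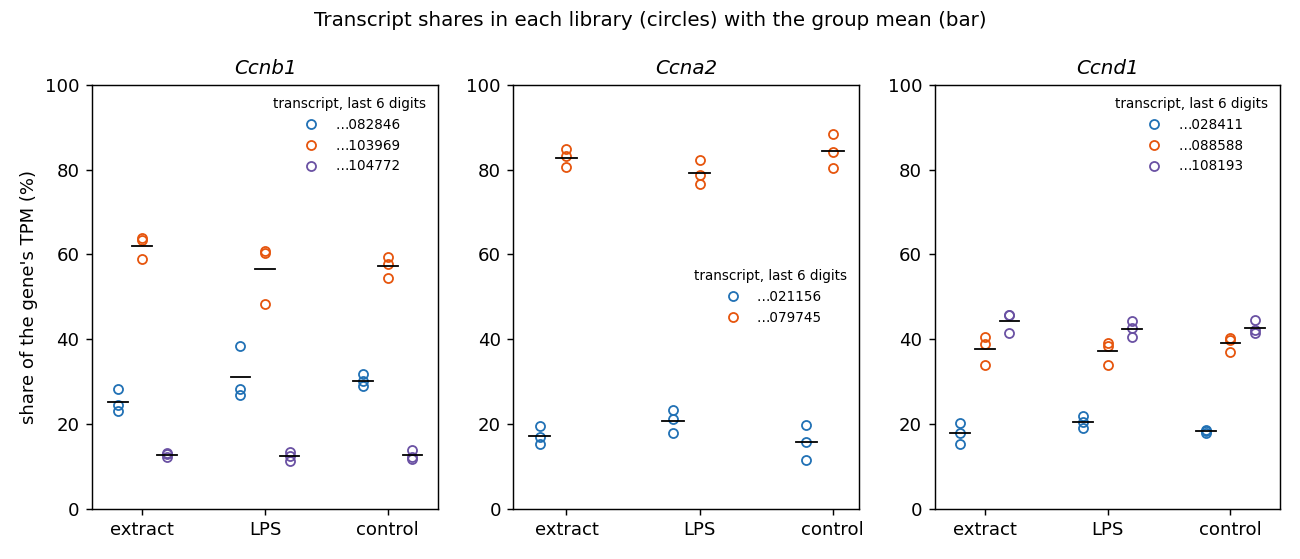
Share of the gene's TPM (vertical axis, percent) held by each transcript of Ccnb1, Ccna2 and Ccnd1 in the extract, LPS and control libraries; circles are single libraries and bars are group means. By its group mean the same transcript leads in every group for Ccnb1 (56.5% to 62.1%), Ccna2 (79.2% to 84.3%) and Ccnd1 (42.5% to 44.4%).

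Likeness to the genes of S phase and mitosis was measured as Pearson's r over the 9 libraries with the mean standardized level of Mki67, Top2a, Ccnb1, Cdk1, Ccna2, Plk1 and Bub1b. Because the libraries fall into 3 groups, r mainly reflects the order and spacing of the group means. Pcna, which was not part of that profile, had an r of 0.984, and Ccnd1 had an r of -0.71. Outside the 9 genes, 135 of 12183 tested genes had an r of at least 0.99. The closest was ENSRNOG00000003703 (r = 0.999), at 96.3 ± 0.376 TPM in extract, 31.5 ± 1.61 TPM in LPS and 49.8 ± 2.15 TPM in control cells. ENSRNOG00000014721 came next (r = 0.998), at 27.5 ± 1.30 TPM in extract, 2.23 ± 0.240 TPM in LPS and 7.20 ± 0.226 TPM in control cells. Neither identifier was paired with a name.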

How the data were processed

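Gene and transcript TPM, rounded to 2 decimals, were deposited by the authors in 1 table each, with 1 column per library. Tools named, per the submitters' processing notes and with no role attached, were RSEM 1.3.3, HISAT2 2.1.0 and fastp. Genome build, annotation and strandedness were not given in the sources used here. Read depth is unknown. Columns were matched to libraries by the code that opens each title.

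Testing covered genes averaging at least 1 TPM over all libraries and used log2(TPM + 1), a scale that understates the fold change of low genes. All 9 libraries entered 1 model of group means (limma 3.58.1, R 4.3.3; moderated, mean-variance trend, two-sided), with Benjamini-Hochberg adjustment over the 12192 genes. On simulated data with independent noise, the procedure was checked only for recovery and direction of added changes. That check set no limit on false calls. The 9 genes and the tests were chosen with earlier results of these data known, and all 9 are named by rule. Lists of further cell cycle genes and of cell type markers were set by symbol but are not analysed here, because 0 identifiers of the table were in the reference table (GRCr8). Of the 9 genes, 0 had values equal to another gene's in all libraries; reads shared with near-identical copies were not examined. A transcript run was accepted within 0.006 TPM per rounded value.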

Additional observations from a re-analysis of the deposited data

How the results depend on the processing

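The fold changes of the 9 genes in the 3 comparisons were recomputed with pseudocounts of 0.1 and 5, with the filter dropped or raised to 5 TPM, with quantile or median-of-ratios scaling, with a replicate block, no mean-variance trend, fits of only the 2 groups compared, and each library left out in turn. Changing the filter, blocking on replicate, dropping the trend or fitting only the 2 groups cannot alter a fold change, only its p. Nor can leaving out a library of the group not compared. Direction was therefore fixed in advance under those settings. Of 486 recomputed values 476 kept their direction and side of the threshold, and 10 kept their direction but lost the call. All 10 were Ccnd1 in LPS versus control, with limma adjusted p = 0.263 under quantile normalization, 0.0629 without the trend and 0.0686 with only the 2 groups, besides those given with that gene. The cause was not tested. The percent of all tested genes called in LPS versus control moved to 17.4 higher and 18.6 lower with median-of-ratios scaling, which centres the libraries. With the replicate block, 8 genes were called lower in LPS versus control, Ccnd1 being the one lost (adjusted p = 0.0627), and no other call of the 9 changed. Between groups, deviations of same-numbered libraries correlated at -0.055 to 0.095 and those of differently numbered libraries at -0.110 to 0.089. Because these ranges overlapped, the numbers were not taken to pair the libraries. Pairing remains possible, since 6 of 9 libraries were most like one of their own number. Alternatives for further gene lists were not run, since no name was paired. Depth limits could not be given for TPM.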
